A study of Mus musculus with 4 samples.

Results

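The genes described here are those of the major histocompatibility complex (MHC, called H2 in the mouse) and of the machinery that loads peptides onto MHC molecules. They were taken as the rows of the count table whose symbol starts with H2- or equals B2m, Tap1, Tap2, Tapbp, Tapbpl, Psmb8, Psmb9, Psmb10, Nlrc5, Erap1, Ciita or Cd74. This gave 56 of 24907 genes, 44 of them by the H2- prefix. RNA-seq was done on ASZ001, which is a line of mouse basal cell carcinoma cells, carrying a doxycycline-inducible vector with c-FOS (2 libraries, c-FOS) or an empty doxycycline-inducible vector (2 libraries, control). Both kinds of cell received doxycycline, and no dose or time is stated in the labels. Cells with the c-FOS vector were not sequenced without doxycycline here, so that induction of c-FOS and any other difference between the transfected cells cannot be told apart. Separate cultures are not stated for the libraries of a group. A p-value therefore measures the spread between these libraries alone, pooled in part over all tested genes, and that spread may be technical. In fits that left out a library to check a result, its group had no replicate. The spread within a group then came from the other group only, so p-values of those fits are not comparable with the others.

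MHC class I molecules consist of a heavy chain and the light chain beta-2-microglobulin, and show peptides from inside the cell to CD8+ T cells. The peptides are cut by the proteasome, moved into the endoplasmic reticulum by the TAP transporter, trimmed there by the aminopeptidase ERAP1 and loaded with the help of tapasin. MHC class II molecules show peptides from endosomes to CD4+ T cells and are made mainly by professional antigen-presenting cells. Interferons raise many of these genes, NLRC5 is the transactivator of class I genes and CIITA that of class II genes. Keratinocytes, the cells from which basal cell carcinoma is thought to arise, carry class I and gain class II under interferon gamma.

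The total counts lay between 28405433 and 32465409 per library. Fos, the gene on the vector, had 297 and 313 counts-per-million (CPM) in the c-FOS libraries, against 0.404 and 0.351 CPM in the control libraries, which fits the labels. The keratin genes Krt5 and Krt14 were above 3000 CPM in all 4 libraries. Of 8 keratinocyte markers 6 fell (75%), where 33.3% of all tested genes fell. The summed level of the 8 markers was 13300 and 13800 CPM in the c-FOS libraries against 26600 and 26500 CPM in the control libraries. Of 22 markers of antigen-presenting and other leukocytes with a row, 10 were at 0 in every library, among them Itgax, Cd79a, Ms4a1 and Tyrobp. Their summed level was 41.9 and 45.5 CPM in the c-FOS libraries and 19.3 and 17.2 CPM in the control libraries, nearly all of it from the 3 that could be tested, Csf1r, Cd68 and Cd14, and these 3 rose. The pan-leukocyte gene Ptprc stayed at or below 0.0899 CPM. Of short lists of 7 fibroblast and 6 endothelial markers, 2 of 3 and 3 of 3 tested genes rose, where 33.8% of all tested genes rose. In the c-FOS libraries the sums of the full lists were 14.9 and 16.5 CPM (fibroblast) and 216 and 212 CPM (endothelial). In the control libraries they were 5.4 and 5.65 CPM (fibroblast) and 113 CPM each (endothelial). Pecam1 and Flt1 made up nearly all of the endothelial sum. Thy1, Kdr and Tie1 were at 0 in every library. Dcn, too low to be tested, had 4 and 3.5 counts in the c-FOS libraries and 8.5 and 18.5 counts in the control libraries. The part of these marker shifts in the changes of antigen presentation genes was not tested. In bulk RNA, fewer cells of a type and less RNA per cell cannot be told apart.

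Of the 56 genes, 25 had counts high enough to be tested, 14 had 0 counts in all 4 libraries, and the other 17 had at most 16 counts in any library. With c-FOS, 12 of the 25 fell and 5 rose at an adjusted p below 0.05 (quasi-likelihood test of edgeR, Benjamini-Hochberg over all tested genes). The 17 calls are 68.0% of the tested members, close to the 67.1% of all 12791 tested genes that passed. By direction, 33.3% of all tested genes fell and 33.8% rose. The median log2 fold change was -0.29 over the 25 members and -0.01 over all tested genes. The groups did not overlap for 19 of the 25, against 83.6% of all tested genes. The genes that fell were Nlrc5, Psmb9, Psmb10, Tap1, Tap2, Tapbpl, Erap1, H2-K1, H2-T23, H2-Q4, H2-Ab1 and H2-Ke6, and those that rose were B2m, Tapbp, H2-M3, H2-DMa and H2-DMb1. Of the 12 tested class I-region rows, 8 did not pass, so that 33.3% passed.

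**Figure D1:**
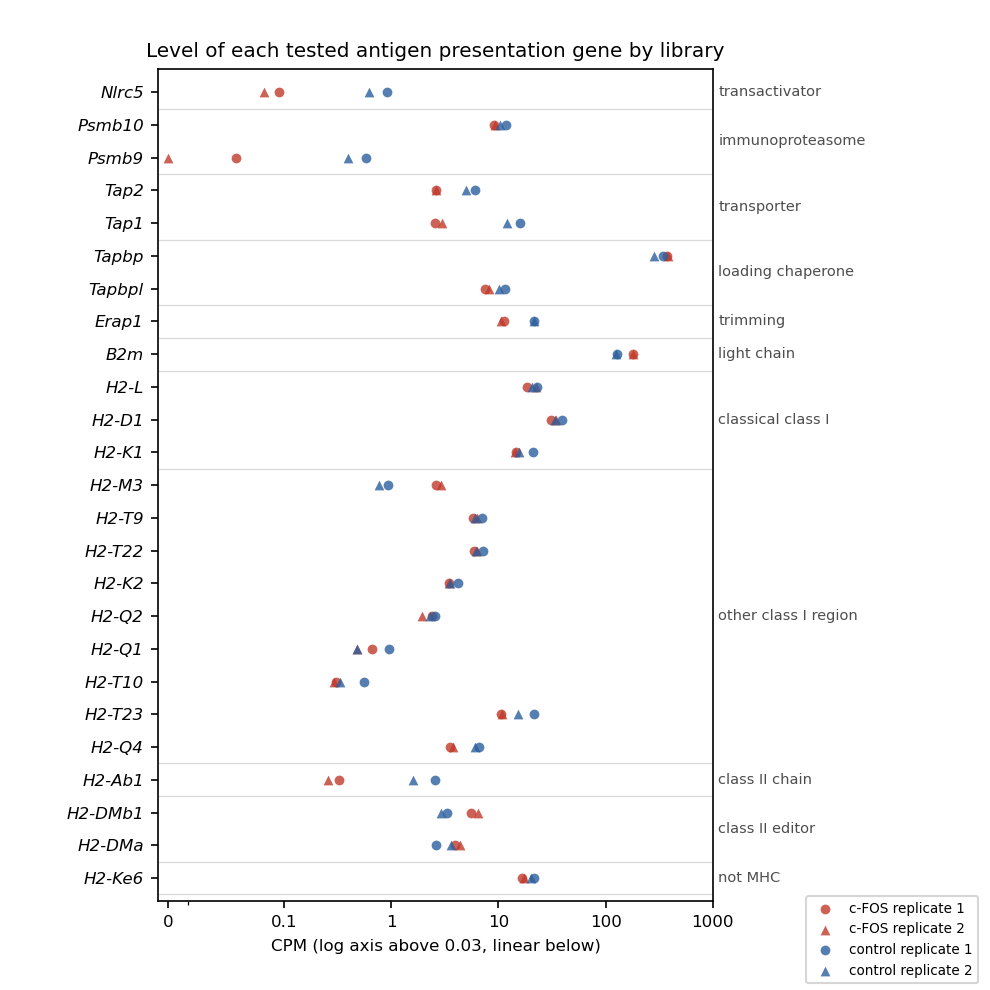
CPM of each tested gene in the 2 c-FOS (red) and 2 control (blue) libraries, grouped by role, on an axis that is logarithmic above 0.03 CPM and linear below. Tapbp and B2m stand above 100 CPM in every library, while Nlrc5 and Psmb9 stand below 1 CPM.

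Nlrc5, the class I transactivator, was low in both groups. It had 2.5 and 2 counts in the c-FOS libraries and 27 and 19.5 counts in the control libraries, or 0.0899 and 0.0646 CPM against 0.908 and 0.623 CPM. Its log2 fold change was -3.12 ± 0.51 (SE) with an edgeR adjusted p of 9.4e-05. Both c-FOS libraries lay under both control libraries, and the control level was 9.05 times the c-FOS level with a 95% counting interval of 3.62 to 29.2. Such intervals cover counting error only. Ciita, the class II transactivator, had at most 0.5 counts in any library.

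The immunoproteasome replaces the catalytic subunits of the ordinary proteasome, Psmb6, Psmb7 and Psmb5, by Psmb9, Psmb10 and Psmb8. Psmb9 had 1 and 0 counts in the c-FOS libraries against 17.5 and 12.5 counts in the control libraries. With 1 count in the c-FOS group, the fitted log2 fold change of -4.60 ± 0.81 (SE; edgeR adjusted p = 0.000179) depends on the prior count. The ratio of control over c-FOS was 29.9 with a 95% counting interval of 4.98 to 1220. Without c-FOS replicate 1 the fitted value was -6.97, and without control replicate 1 Psmb9 was too low to be tested. Psmb10 had 9.04 and 9.38 CPM in the c-FOS libraries and 11.9 and 10.4 CPM in the control libraries, so that the groups stood apart by a narrow gap. Its log2 fold change was -0.27 ± 0.10 (SE; edgeR adjusted p = 0.0282), but the call was lost in DESeq2 (adjusted p = 0.163) and in 3 of the fits that leave out a library. These were the fits without control replicate 1 (-0.17, edgeR adjusted p = 0.184) and without either c-FOS library (edgeR adjusted p = 0.141 and 0.0814). Over all alternatives its adjusted p ran between 0.00232 and 0.184. Psmb8 was listed at 0 in all 4 libraries, where a count of 0 allows up to 0.108 CPM in c-FOS replicate 1, the library with the smallest effective size. The replaced subunits were far more abundant: Psmb5, Psmb6 and Psmb7 together had 286 and 288 CPM in the c-FOS libraries and 296 and 295 CPM in the control libraries, against 9.08 and 9.38 CPM (c-FOS) and 12.5 and 10.8 CPM (control) for the 3 immunoproteasome rows. None of the 3 passed (log2 fold changes of -0.10, -0.05 and -0.00 for Psmb5, Psmb6 and Psmb7; edgeR adjusted p = 0.129, 0.251 and 0.986). When library totals replaced the TMM factors, all 3 passed as lower, at -0.23, -0.19 and -0.14, a scaling that moves the median of all tested genes to -0.14. Psmb5 and Psmb6 also passed as lower with upper-quartile factors (-0.16 and -0.12, edgeR adjusted p = 0.0183 and 0.0197), and Psmb5 without control replicate 2 (-0.14, edgeR adjusted p = 0.0336). The sign of Psmb7 also changed with RLE factors, in DESeq2 and in 2 of the fits that leave out a library.

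The TAP transporter is a dimer of TAP1 and TAP2. Tap1 had 2.55 and 3.0 CPM in the c-FOS libraries and 16 and 12 CPM in the control libraries, a log2 fold change of -2.33 ± 0.16 (SE; edgeR adjusted p = 1.21e-08). Tap2 had 2.64 and 2.60 CPM in the c-FOS libraries and 6.07 and 4.95 CPM in the control libraries, a log2 fold change of -1.06 ± 0.15 (SE; edgeR adjusted p = 3.26e-05). For both genes each c-FOS library was below each control library by more than the spread within a group. Per kilobase of gene model, Tap1 stood at 0.946 CPM per kb in the c-FOS group and 4.77 in the control group, and Tap2 at 1.06 and 2.23. The transcripts of the chains were thus near the same level in c-FOS cells, while that of Tap1 was above that of Tap2 in control cells.

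Tap1 and Psmb9 are neighbours that are read away from each other from a shared promoter region. Their start sites in RefSeq (GRCm38.p6) lie 226 bases apart on chromosome 17. The 225 bases between them, chr17:34187331-34187555 on the strand of Tap1, are shown because both genes fell. The capitals mark TGACG, the core of the cyclic-AMP-response-like X2 element of MHC promoters, at -86 from the Tap1 start:
Tap1: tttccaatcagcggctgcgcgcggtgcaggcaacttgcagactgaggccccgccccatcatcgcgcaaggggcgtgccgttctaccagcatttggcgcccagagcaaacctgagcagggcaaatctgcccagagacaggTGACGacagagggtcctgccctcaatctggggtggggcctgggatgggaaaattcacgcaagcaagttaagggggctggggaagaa
On either strand, TGACG was found in the promoter window (250 bases before to 50 after the start) of 23% of 27025 genes. Of the 16 tested members with a window, 8 held it, with the site between Tap1 and Psmb9 counted for both genes. Neither Tap1 nor Psmb9 was among the windows with the spaced ATTGG described below, and whether this match acts as an X2 element was not tested. The build of the counts is mm9, and the coordinates are those of the RefSeq table.

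Erap1, the trimming aminopeptidase, fell, and of the related loading chaperones Tapbp rose and Tapbpl fell. Erap1 had 11.2 and 10.6 CPM in the c-FOS libraries and 21.5 and 21.3 CPM in the control libraries, a log2 fold change of -0.97 ± 0.08 (SE; edgeR adjusted p = 1.17e-07). The 2 control libraries were nearly equal here, with a log2 ratio of 0.01. Erap1 overlaps Cast on the opposite strand in the reference annotation. Cast rose by 0.52 on the log2 scale, with a mean of 373 CPM in the c-FOS group against 260 CPM in the control group. The strand setting of the counting is unknown here, so reads of the overlap could have gone to either gene. Tapbp, which encodes tapasin, the chaperone that bridges TAP and class I, was among the most abundant of the members. It had 371 and 378 CPM in the c-FOS libraries and 342 and 280 CPM in the control libraries, a log2 fold change of 0.27 ± 0.07 (SE; edgeR adjusted p = 0.00277). It did not pass with library totals (0.13, edgeR adjusted p = 0.0909) or in DESeq2 (adjusted p = 0.103). Its fold change was 0.42 without control replicate 1 and 0.13 without control replicate 2. Tapbpl, a peptide editor related to tapasin, had 7.58 and 8.15 CPM in the c-FOS libraries and 11.6 and 10.1 CPM in the control libraries, a log2 fold change of -0.46 ± 0.11 (SE; edgeR adjusted p = 0.00147).

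B2m, the light chain that every class I heavy chain needs at the cell surface, rose. It had 181 CPM in each c-FOS library and 129 and 124 CPM in the control libraries. Its log2 fold change was 0.52 ± 0.04 (SE; edgeR adjusted p = 4.26e-08). It passed as higher in every alternative that kept all 4 libraries, and its fold change lay between 0.49 and 0.55 with a library left out. Per kilobase, B2m was the highest of the 25 rows, at 212 CPM per kb in the c-FOS group and 149 in the control group, and Tapbp was next at 137 and 114.

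**Figure D2:**
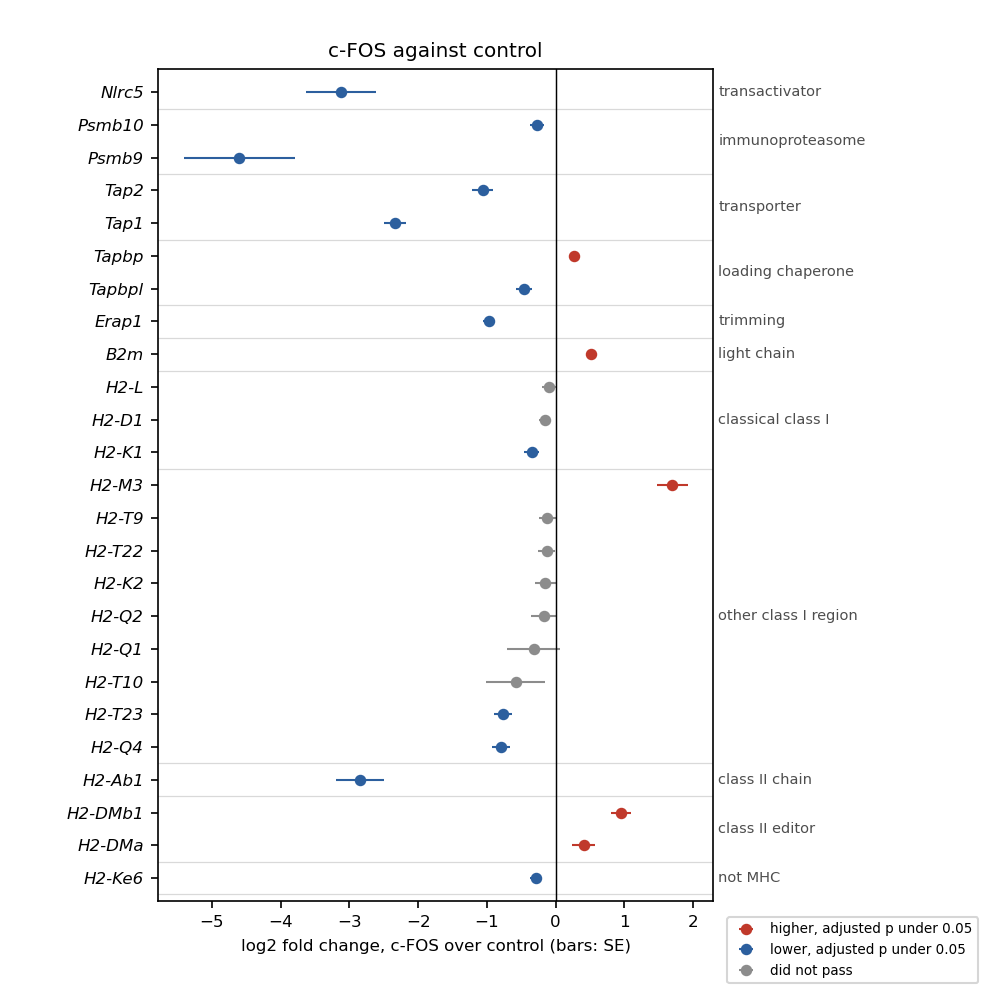
log2 fold change of c-FOS over control with its SE for the 25 tested genes, coloured by whether an adjusted p below 0.05 was reached. The fall of Psmb9, Nlrc5, H2-Ab1, Tap1 and Tap2 exceeds 1 on the log2 scale, while the classical class I rows lie between -0.35 and -0.10.

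The classical class I heavy chains H2-K, H2-D and H2-L carry most peptides to T cells. H2-D1 had 30.8 and 34.2 CPM in the c-FOS libraries and 39.1 and 33.8 CPM in the control libraries, and the groups overlapped. Its log2 fold change was -0.16 ± 0.08 (SE; edgeR adjusted p = 0.0753), which did not pass. It passed as lower in 5 of 12 alternatives, with library totals (-0.30, edgeR adjusted p = 0.0031), upper-quartile factors (0.0187), no filter on low counts (0.0341), the replicate block (0.0351) and without control replicate 2 (-0.26, 0.000368). Its adjusted p ran between 0.000368 and 0.476 over the alternatives run. H2-K1 had 14.5 and 14.2 CPM in the c-FOS libraries and 21.0 and 15.7 CPM in the control libraries, a log2 fold change of -0.35 ± 0.11 (SE; edgeR adjusted p = 0.0156). Control replicate 1 stood apart from the other 3 libraries, and without it the value was -0.13 (adjusted p = 0.259). Leaving out c-FOS replicate 2 also ended the call (edgeR adjusted p = 0.0573), within a range of 6.44e-09 to 0.259 over the alternatives run. H2-L had 18.3 and 22.4 CPM in the c-FOS libraries and 23.1 and 20.5 CPM in the control libraries and did not pass (-0.10 ± 0.10, SE; edgeR adjusted p = 0.399). It passed as lower with library totals (-0.23, edgeR adjusted p = 0.0455) and without control replicate 2 (-0.18, edgeR adjusted p = 0.0496). H2-L has no entry in the RefSeq table. The 3 rows summed to 63.7 and 70.7 CPM in the c-FOS libraries and 83.2 and 70.0 CPM in the control libraries. The log2 ratio was -0.19, and control replicate 2 lay inside the range of the c-FOS libraries. Without H2-L the sum did not overlap between the groups, at a log2 ratio of -0.22. Its closest values were 48.4 CPM (c-FOS replicate 2) and 49.5 CPM (control replicate 2). The sum of all 33 class I-region rows did not overlap either (-0.26), with 108 and 112 CPM in those libraries. The difference in these sums was not tested. Class I genes are close in sequence and differ between mouse strains, so reads can be shared between rows or missed, and single rows are uncertain.

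Among the 30 other rows of the class I region, 9 were tested, 2 fell, 1 rose and 6 did not pass. Thus 33.3% of the tested rows passed, against 67.1% of all tested genes. H2-M3, which presents formylated peptides of bacterial and mitochondrial origin, rose. It had 2.61 and 2.92 CPM in the c-FOS libraries and 0.942 and 0.766 CPM in the control libraries. Its log2 fold change was 1.70 ± 0.22 (SE; edgeR adjusted p = 9.98e-06). It passed in every alternative that kept all 4 libraries, and its fold change was 1.56 or more when a library was left out. It was the 1 member to rise by 2-fold or more. H2-T23, which encodes Qa-1, a ligand of an inhibitory receptor of natural killer cells, had 10.5 and 10.9 CPM in the c-FOS libraries and 21.5 and 15.3 CPM in the control libraries. Its log2 fold change was -0.77 ± 0.13 (SE; edgeR adjusted p = 0.000135), and -0.51 without control replicate 1. It passed in every alternative that kept all 4 libraries. H2-Q4 had 3.52 and 3.79 CPM in the c-FOS libraries and 6.59 and 6.10 CPM in the control libraries, a log2 fold change of -0.79 ± 0.13 (SE; edgeR adjusted p = 0.000103). The 6 rows that did not pass were H2-T22, H2-T9, H2-K2, H2-Q2, H2-Q1 and H2-T10, with log2 fold changes between -0.58 and -0.12. Their levels lay between 0.291 and 6.34 CPM in the c-FOS libraries and between 0.335 and 7.20 CPM in the control libraries. RefSeq lists H2-K2 and H2-T10 as transcribed pseudogenes.

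Some of these rows held nearly the same counts, and whether they shared reads was not tested. H2-T22 and H2-T9 agreed within 5% in all 4 libraries, with a largest difference of 3.5 counts. H2-Q6 and H2-Q8 held identical values in all 4 libraries, 2 and 1 counts in the c-FOS libraries and 1 and 16 counts in the control libraries, and H2-Q7 and H2-Q9 were identical at 0.5 counts or less, a level at which Ciita also had the same values. The 16 counts of H2-Q6 and H2-Q8 in control replicate 2 and the 11.5 counts of H2-Q10 in control replicate 1 were the highest among members that were not tested. H2-M1, H2-M9, H2-M11 and 5 of the H2-M10 rows, the H2-M10 genes being expressed in the mouse mainly in sensory neurons of the vomeronasal organ, were at 0 in every library, as was H2-Q5. The remaining rows, H2-T24, H2-M5, H2-Bl, H2-T-ps, H2-T3, H2-M2 and H2-M10.2, had at most 6 counts in a library.

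The promoters of class I heavy chains and B2m share an arrangement of elements that NLRC5 and CIITA act through, in which an X2 element is followed at a fixed distance by a Y box. Windows were found in RefSeq for 39 of the 56 members and 16 of the 25 tested. In 4 of these 16, B2m, H2-D1, H2-K1 and H2-M3, TGACG was followed after exactly 20 bases by ATTGG on the strand of the gene. In all, 27 of 27025 genes (0.0999%) had this on either strand. The spacing was chosen after these 4 windows had been seen. The blocks are shown because the 4 genes differ in direction, B2m and H2-M3 rising, H2-K1 falling and H2-D1 not passing, and the capitals mark TGACG and ATTGG:
B2m: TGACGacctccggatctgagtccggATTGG
H2-M3: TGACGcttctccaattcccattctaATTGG
H2-K1: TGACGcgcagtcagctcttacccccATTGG
H2-D1: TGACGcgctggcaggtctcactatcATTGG
They lie at chr2:122147609-122147638 (B2m, plus strand), chr17:37270188-37270217 (H2-M3, plus strand), chr17:34000359-34000388 (H2-K1, minus strand) and chr17:35262993-35263022 (H2-D1, plus strand) in GRCm38.p6. Their first bases stand at -78, -46, -41 and -101 from the start sites in that order, where H2-K1 has another RefSeq start 14 bases away.

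The region before the B2m start also holds the core of an interferon-stimulated response element, TTTC followed after 2 bases by TTTC, read on the minus strand at -139. The 250 bases upstream of B2m, chr2:122147437-122147686 on the plus strand, are shown with that core, TGACG and ATTGG in capitals:
B2m: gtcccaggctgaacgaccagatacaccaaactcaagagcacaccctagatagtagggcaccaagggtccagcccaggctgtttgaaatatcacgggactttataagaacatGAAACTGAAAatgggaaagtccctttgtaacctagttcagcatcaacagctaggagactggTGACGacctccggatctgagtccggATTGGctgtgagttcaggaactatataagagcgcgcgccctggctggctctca
This core was found in 4 of the 16 windows of tested members, those of B2m, Erap1, H2-T22 and H2-T23, and in 3.99% of all genes. Of these, B2m rose, Erap1 and H2-T23 fell and H2-T22 did not pass. TGANTCA, the site bound by AP-1 dimers of FOS and JUN proteins, was found in 4 of the 39 members with a window and in 8.97% of all genes. The 4 were H2-DMb1 and H2-DMa (at 1 of its 2 RefSeq starts), the only ones among the 16 tested members with a window, and H2-M1 and H2-M10.3, which were at 0 in every library. A match describes letters in these windows and does not show binding.

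**Figure D3:**
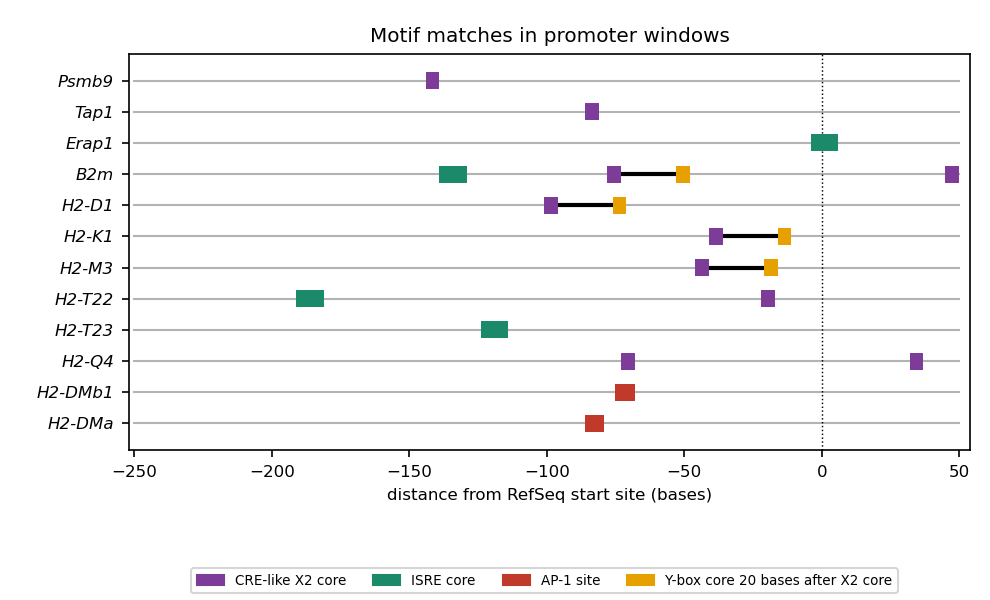
Matches of the AP-1, X2, Y-box and ISRE (interferon-stimulated response element) cores in the promoter windows of tested members with at least 1 match, by distance in bases from the RefSeq start. In B2m, H2-D1, H2-K1 and H2-M3 a Y-box core follows the X2 core at the same distance (black bar).

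In class II, H2-Ab1, the beta chain of the I-A molecule, was the only chain of 5 with enough counts to be tested. It had 9 and 8 counts in the c-FOS libraries and 76.5 and 50.5 counts in the control libraries, or 0.324 and 0.258 CPM against 2.57 and 1.61 CPM. Its log2 fold change was -2.84 ± 0.35 (SE; edgeR adjusted p = 6.11e-06), between -3.14 and -2.48 with a library left out. Its partner chain H2-Aa was at 0 in all 4 libraries, H2-Ea-ps and H2-Eb2 likewise, and H2-Eb1 had 0.5 counts in 1 library. Cd74, the invariant chain that fills the groove of new class II molecules, had at most 2 counts. The class II molecule was thus measured by its beta chain transcript alone, in both groups.

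The H2-DM heterodimer exchanges the invariant chain fragment for peptide, and the genes of its chains rose. H2-DMb1 had 5.54 and 6.44 CPM in the c-FOS libraries and 3.31 and 2.89 CPM in the control libraries. Its log2 fold change was 0.95 ± 0.14 (SE; edgeR adjusted p = 5.02e-05). It passed in every alternative that kept all 4 libraries, and its fold change lay between 0.83 and 1.06 with a library left out. H2-DMa had 3.92 and 4.37 CPM in the c-FOS libraries and 2.61 and 3.61 CPM in the control libraries, a log2 fold change of 0.41 ± 0.17 (SE; edgeR adjusted p = 0.0444). Its call was lost in 6 of 12 alternatives, with 0.21 (adjusted p = 0.292) without control replicate 1, over a range of 0.00173 to 0.292. H2-DMa overlaps Brd2 on the opposite strand in the annotation. Brd2 had 388 CPM in the c-FOS group and 318 CPM in the control group and rose by 0.29 on the log2 scale, and its part in the H2-DMa counts was not tested. H2-DMb2, H2-Oa and H2-Ob, the last 2 being chains of the molecule that restrains H2-DM, had at most 1 count.

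H2-Ke6 bears the prefix because of its place in the complex and is not an MHC molecule; RefSeq gives it the synonym Hsd17b8, a dehydrogenase. It had 16.7 and 17.4 CPM in the c-FOS libraries and 21.4 and 20.2 CPM in the control libraries, a log2 fold change of -0.29 ± 0.08 (SE; edgeR adjusted p = 0.00463), and leaving out c-FOS replicate 1 ended this call (edgeR adjusted p = 0.059). Without this row, 11 of 24 tested members fell and 5 rose, so that 66.7% passed, against 67.1% of all tested genes.

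The control libraries differed from each other in these genes. Of the 25 tested members, 24 were higher in control replicate 1 than in control replicate 2, where 49.9% of all tested genes were. The log2 ratio of control replicate 1 over 2 had a median of 0.22 and quartiles of 0.18 and 0.42 over the members, and a median of 0.00 and quartiles of -0.08 and 0.08 over all tested genes. The exception was H2-DMa, at -0.47. The ratio was 0.67 for H2-Ab1, 0.56 for Psmb9, 0.54 for Nlrc5, 0.49 for H2-T23 and 0.42 for both Tap1 and H2-K1, and only 0.06 for B2m. Between the c-FOS libraries, 10 of the 24 members with a count in both were higher in replicate 1, with a median log2 ratio of -0.05. Members and libraries are not independent, so these are descriptions.

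**Figure D4:**
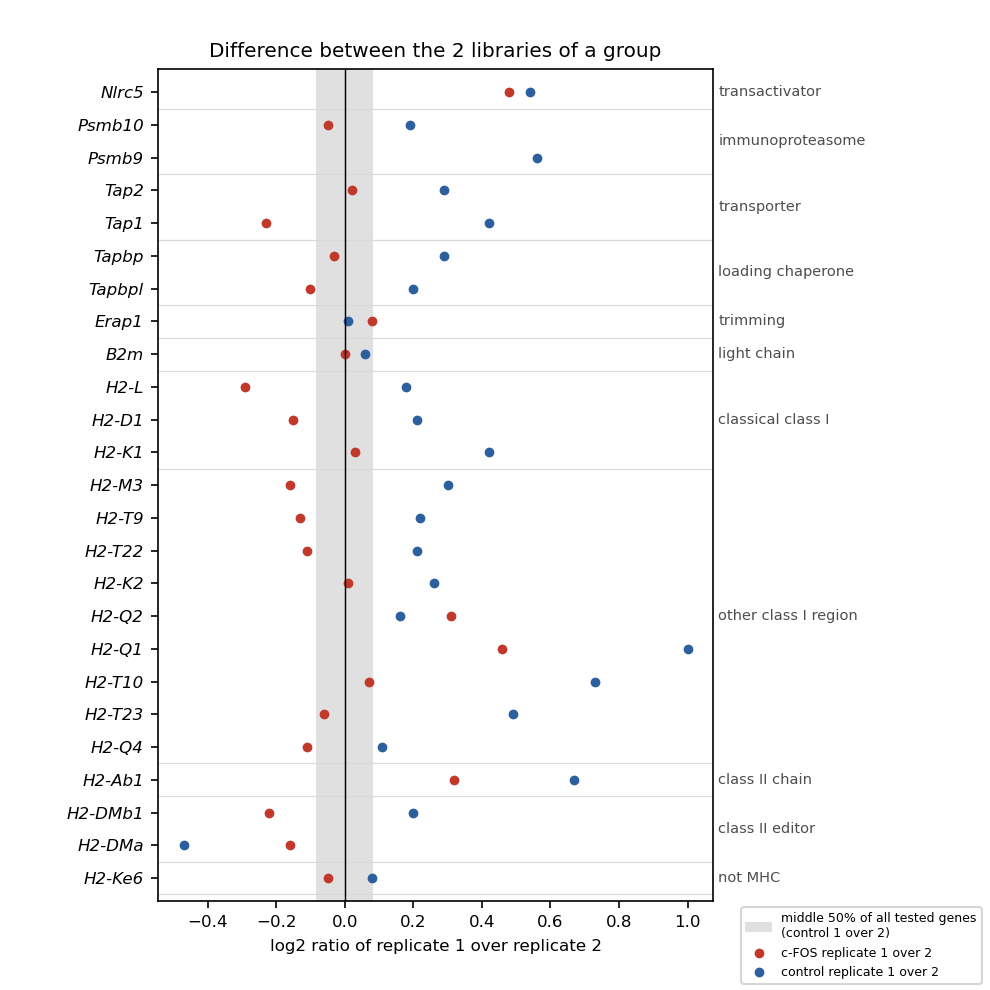
log2 ratio of replicate 1 over replicate 2 within the c-FOS group (red) and the control group (blue) for each tested gene; the grey band holds the middle 50% of all tested genes for the control ratio. The blue points lie to the right of 0 for 24 of 25 genes, and the red points lie on both sides.

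Interferon-stimulated genes shifted in the same control library. All 31 tested genes of a list of 35 were higher in control replicate 1 than in control replicate 2, with a median log2 ratio of 0.64. Between the c-FOS libraries, 21 of the 31 were higher in replicate 1, with a median log2 ratio of 0.11. With c-FOS, 22 of the 31 fell, Xaf1 and Eif2ak2 rose and 7 did not pass, so that 77.4% passed, against 67.1% of all tested genes. Their median log2 fold change was -0.84, and -0.38 when control replicate 1 was left out. The chemokine gene Cxcl10 had 0.108 and 0.129 CPM in the c-FOS libraries and 3.36 and 2.30 CPM in the control libraries, and Rsad2, an antiviral enzyme, had 0.629 and 0.484 CPM in the c-FOS libraries and 7.53 and 3.61 CPM in the control libraries. Mx1, with 2 counts in each c-FOS library against 40.5 and 14.5 counts in the control libraries, fell by 3.68 on the log2 scale, and by 2.74 without control replicate 1. Its ratio of control over c-FOS was 13.5 (95% counting interval 4.98 to 51.2). Ifi27l2a had 1 and 2 counts in the c-FOS libraries against 35 and 27.5 counts in the control libraries, a ratio of control over c-FOS of 20.2 (95% counting interval 6.61 to 101). The part of this shift in the antigen presentation genes was not tested. Without control replicate 1 the fit holds no spread between control libraries, so only fold changes are given. They stayed negative for Tap1 (-2.10), Tap2 (-0.91), Nlrc5 (-2.85), H2-Ab1 (-2.48), Erap1 (-0.97), H2-Q4 (-0.73), H2-T23 (-0.51), Tapbpl (-0.36) and H2-Ke6 (-0.24). H2-K1 was at only -0.13 and Psmb10 at only -0.17, and Psmb9 could not be tested. H2-Q6 and H2-Q8, which hold identical counts, became testable at -3.22 each, which rests on the 16 counts in control replicate 2. B2m (0.55), Tapbp (0.42), H2-M3 (1.86) and H2-DMb1 (1.05) stayed positive, and H2-DMa was at only 0.21.

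**Figure D5:**
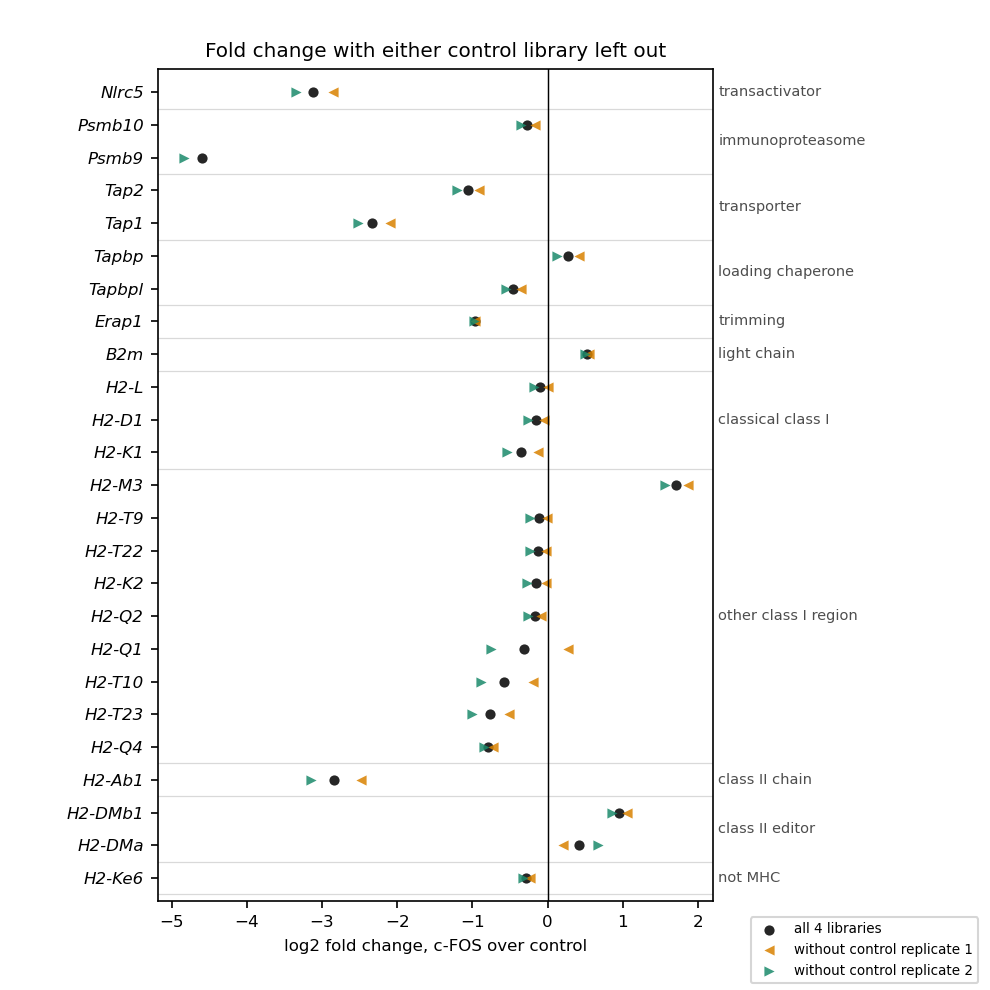
log2 fold change of each tested gene with all 4 libraries (black) and with control replicate 1 (orange) or control replicate 2 (green) left out. Without control replicate 1 the heavy chains H2-K1, H2-D1 and H2-L lie between -0.13 and 0; Psmb9 could not be tested in that setting.

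Regulators of these genes moved both ways. Of 28 tested regulators on a list of 30, 13 fell, 8 rose and 7 did not pass, so that 75% passed, against 67.1% of all tested genes. Rfx5, a subunit of the factor that binds the X box of MHC promoters, had 16.9 and 18.1 CPM in the c-FOS libraries and 35.0 and 30.9 CPM in the control libraries, a log2 fold change of -0.91 ± 0.08 (SE; edgeR adjusted p = 1.97e-07). Irf1, an interferon-induced activator of class I genes, had 23.9 and 23.8 CPM in the c-FOS libraries and 24.6 and 22.5 CPM in the control libraries and did not pass (0.02 ± 0.07, SE; edgeR adjusted p = 0.834). It was named after its values were seen. Ezh2, a Polycomb histone methyltransferase, fell by 0.60, and Relb, a subunit of the non-canonical NF-kB pathway, rose by 0.59 on the log2 scale.

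Of 22 partners in class I processing outside the members, 13 rose, Blmh and Pomp fell and 7 did not pass, so that 68.2% passed, against 67.1% of all tested genes. Their median log2 fold change was 0.20. The chaperones of the loading complex calreticulin (Calr, 0.44) and ERp57 (Pdia3, 0.50) rose on the log2 scale, as did the general endoplasmic reticulum chaperone gene Hspa5 (0.71). Calr had 1260 and 1210 CPM in the c-FOS libraries and 892 and 930 CPM in the control libraries. The cytosolic peptidase gene Blmh fell by 1.02, with 38.5 and 38.6 CPM in the c-FOS libraries and 76.7 and 80.2 CPM in the control libraries. Of 10 tested genes of endosomal class II processing, 7 rose, 1 fell and 2 did not pass, where 33.8% of all tested genes rose and 33.3% fell. Cd63, a tetraspanin of late endosomes, rose by 1.52, and the cathepsin genes Ctsz and Ctsd by 0.97 and 0.72 on the log2 scale. The gene that fell was Ifi30, a thiol reductase of antigen processing that interferon gamma induces, with 41.7 and 43.8 CPM in the c-FOS libraries and 68.0 and 72.1 CPM in the control libraries (-0.71).

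Of 14 tested genes for class I-like molecules and co-signalling ligands, 9 rose, Icosl and Lgals9 fell and 3 did not pass, so that 78.6% passed, against 67.1% of all tested genes. Procr, a class I-like receptor for protein C, had 7.05 and 8.28 CPM in the c-FOS libraries and 1.61 and 1.76 CPM in the control libraries, a log2 fold change of 2.19 ± 0.16 (SE; edgeR adjusted p = 2.08e-08). Pvr, a ligand of activating and inhibitory receptors of natural killer and T cells, had 46.9 and 48.0 CPM in the c-FOS libraries and 12.1 and 14.1 CPM in the control libraries, a log2 fold change of 1.85 ± 0.08 (SE; edgeR adjusted p = 5.9e-11). Icosl, the ligand of the T cell co-stimulator ICOS, fell by 2.74 on the log2 scale, with 2.77 and 2.45 CPM in the c-FOS libraries and 17.9 and 16.9 CPM in the control libraries. Cd80, a ligand of CD28, stood at 0.647 and 0.371 CPM in the c-FOS libraries and 0.286 and 0.0639 CPM in the control libraries. Its log2 fold change was 1.48 ± 0.56 (SE; edgeR adjusted p = 0.0315). The call was lost when c-FOS replicate 1 (1.09, edgeR adjusted p = 0.252) or control replicate 2 (0.75, edgeR adjusted p = 0.214) was left out and in DESeq2 (adjusted p = 0.163), within a range of 0.000615 to 0.252 over the alternatives run. Without control replicate 1 its fold change was 2.92.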

How the data were processed

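Per the labels' protocols, RNA from adherent cells was purified on columns and made into TruSeq libraries. The series design text names TopHat and then HOMER for the reads that passed quality filtering, and DESeq2 and the build mm9 stand in the submitters' processing notes. Tool versions, annotation and strand setting were not found in the sources at hand. The authors deposited unnormalized expected counts per gene symbol, all multiples of 0.5, and a gene model length in bases, used here for levels per kilobase. The table had 24909 rows. For 2 symbols with a second row, only the row with more counts was used.

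Counts were rounded to whole numbers (0.5 upwards) and tested in edgeR 4.0.16 under R 4.3.3. Factors were from TMM, the filter was filterByExpr (minimum count 10, minimum total 15) and the test was the two-sided quasi-likelihood test, c-FOS against control with no covariate, adjusted by Benjamini-Hochberg over 12791 genes at a threshold of 0.05. The procedure was tested on simulated counts. CPM is the deposited count over the effective library size, and SE comes from the F statistic. Chi-square per degree of freedom between libraries of a group was 1.93 (c-FOS) and 4.82 (control), above sampling noise. Promoter windows came from RefSeq (GRCm38.p6), in which 53 of 56 member symbols were found. Both strands were searched, and the spaced pair of cores contains the X2 core. Alternatives were RLE, upper-quartile or no composition factors, no filter or a minimum count of 50, DESeq2 1.42.0, limma-voom 3.58.1, a replicate block and each library left out. All tested members were named, and of each companion list other than the cell type markers the 4 genes with the largest absolute log2 fold change among those that passed, with genes needed by a count of 5 or fewer, except for a regulator that is not reported here. The members, lists and tests were chosen with earlier results of these data known.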

Additional observations from a re-analysis of the deposited data

How the results depend on the processing

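Of 12 alternatives, the count of members that rose left the range of 1.5 times the reported 5 in 2: it was 3 with library totals and 3 in DESeq2. The count of members that fell, 12, lay between 10 and 15 over the alternatives that kept all 4 libraries. It was 14 with library totals, 15 with no filter on low counts and 10 with a minimum count of 50. The 15 include both H2-Q6 and H2-Q8 (-2.36 each), which hold identical counts. Both also entered the fit without control replicate 1, so the members that fell there are not all those of the main fit. The count of all genes lay between 7176 and 9096 around 8589. Leaving out a library gave 4 to 5 members higher, 10 to 15 lower and 7179 to 8878 genes in all. With library totals the median log2 fold change over all tested genes was -0.14, against -0.01 with TMM, and 35.4% of the changed genes were higher, against 50.3%. Of 17 called members, 12 kept their call in every alternative that gave a value; H2-K1, Psmb10, H2-Ke6, Tapbp and H2-DMa did not. Psmb9 gave no value without control replicate 1 or with a minimum count of 50, and Nlrc5 gave none with that minimum. With a library left out, the fold change of H2-L ran between -0.25 and 0.04 (without c-FOS replicate 1), that of H2-Q1 between -0.75 and 0.27 (without control replicate 1) and that of Psmb7 between -0.04 and 0.04 (without control replicate 2; 0.02 without c-FOS replicate 1), so that the sign changed. Psmb7 also changed sign with RLE factors and in DESeq2 (0.00 each). H2-Q1 and Psmb7 passed in none of these fits. The cause was not tested. Replicate numbers in the titles do not state a pairing, and deviations of same-numbered libraries had a correlation of -0.069. With the replicate block, 8464 genes passed, 5 members were higher and 13 lower; the added call was H2-D1 (-0.16, adjusted p = 0.0351 in edgeR). Depth limits the rows of Psmb9, Nlrc5 and H2-Ab1, which had 1, 5 and 17 rounded counts in the c-FOS group.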
